A study of Mus musculus with 24 samples.

Results

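Smooth muscle and pericyte markers were followed in the left ventricle of mice in which Hira, the gene of a histone chaperone, is deleted in cardiomyocytes. The genes were chosen as established markers of the muscular vessel wall and of pericytes, 10 in all, and every probe annotated with one of their symbols or an older synonym was taken. Of these, 6 were measured, each by 1 probe, among 17742 genes on the array: Tagln, Cnn1, Smtn, Cald1, Rgs5 and Pdgfrb. Myh11, Myl9, Mylk and Notch3 had no probe under their name or a synonym in the probe annotation given and could not be followed. RNA came from healthy, unscarred tissue of the left ventricular free wall at 6 weeks of age, from 4 control mice (aMHC-cre Tg/+; Hira flox/+) and 4 Hira CKO mice (aMHC-cre Tg/+; Hira flox/-), all of the strain C57BL6/J;129S1/SvImJ. Mice of both groups thus carried the Cre transgene and 1 floxed Hira allele. Each mouse was hybridized to 3 single-colour arrays, whose log2 values were averaged, so that n is 4 mice in each group. Mice are named as in the labels.

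The αMyHC promoter that drives Cre is a cardiomyocyte promoter, so the vessel wall is not the target of the deletion. As the genotypes are written, smooth muscle cells and pericytes of Hira CKO mice carry 1 deleted and 1 floxed allele, and those of control mice carry 1 floxed and 1 intact allele. Whole ventricular tissue was measured, where fewer cells of a type and less RNA per cell cannot be told apart. The Hira probe itself stood at a log2 fold change of −0.20 (limma adjusted p = 0.282), and since its place relative to the deleted exon is not known here, it does not check the genotype.

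Vascular smooth muscle cells and pericytes together are called mural cells. Smooth muscle cells wrap arteries and veins and contract through smooth muscle actin and myosin, with a set of actin-binding proteins that regulate the filaments, and many of the genes for these proteins are driven by serum response factor (SRF) and its partner myocardin through CArG boxes in their promoters. Pericytes sit on capillaries, are recruited by PDGF-B from endothelial cells through the receptor PDGFRβ, and depend on Notch signalling for their attachment to the endothelium.

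None of the 6 markers passed the test between Hira CKO and control ventricles (limma, Benjamini-Hochberg adjusted p under 0.05 over all genes). Over the 17742 genes tested, 14.6% were called, 9.65% lower and 4.94% higher in Hira CKO. This balance turned under other scaling, with 1251 genes higher and 973 lower after quantile normalization, against 876 and 1712 on deposited values. At an unadjusted p under 0.05, 2 of the 6 had a lower value in Hira CKO, Tagln and Smtn, where 26.8% of all genes did so. The methods' t-test, meant for comparing 2 groups, also called 0 of the 6, with 2 at an unadjusted p under 0.05. The log2 fold change (Hira CKO over control) was below 0 for all 6, with a median of −0.32, but 67.8% of all genes lay below 0, with a median of −0.14. After quantile normalization 5 of the 6 lay below 0, with a median of −0.15, against 52.6% of all genes and a median of −0.02. A log2 fold change of 1 or more in either direction together with an unadjusted p under 0.05, the first of the criteria in the methods and the one that applies where a fold change can be had, was reached by 0 of the 6 and by 4.89% of all genes.

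**Figure D1:**
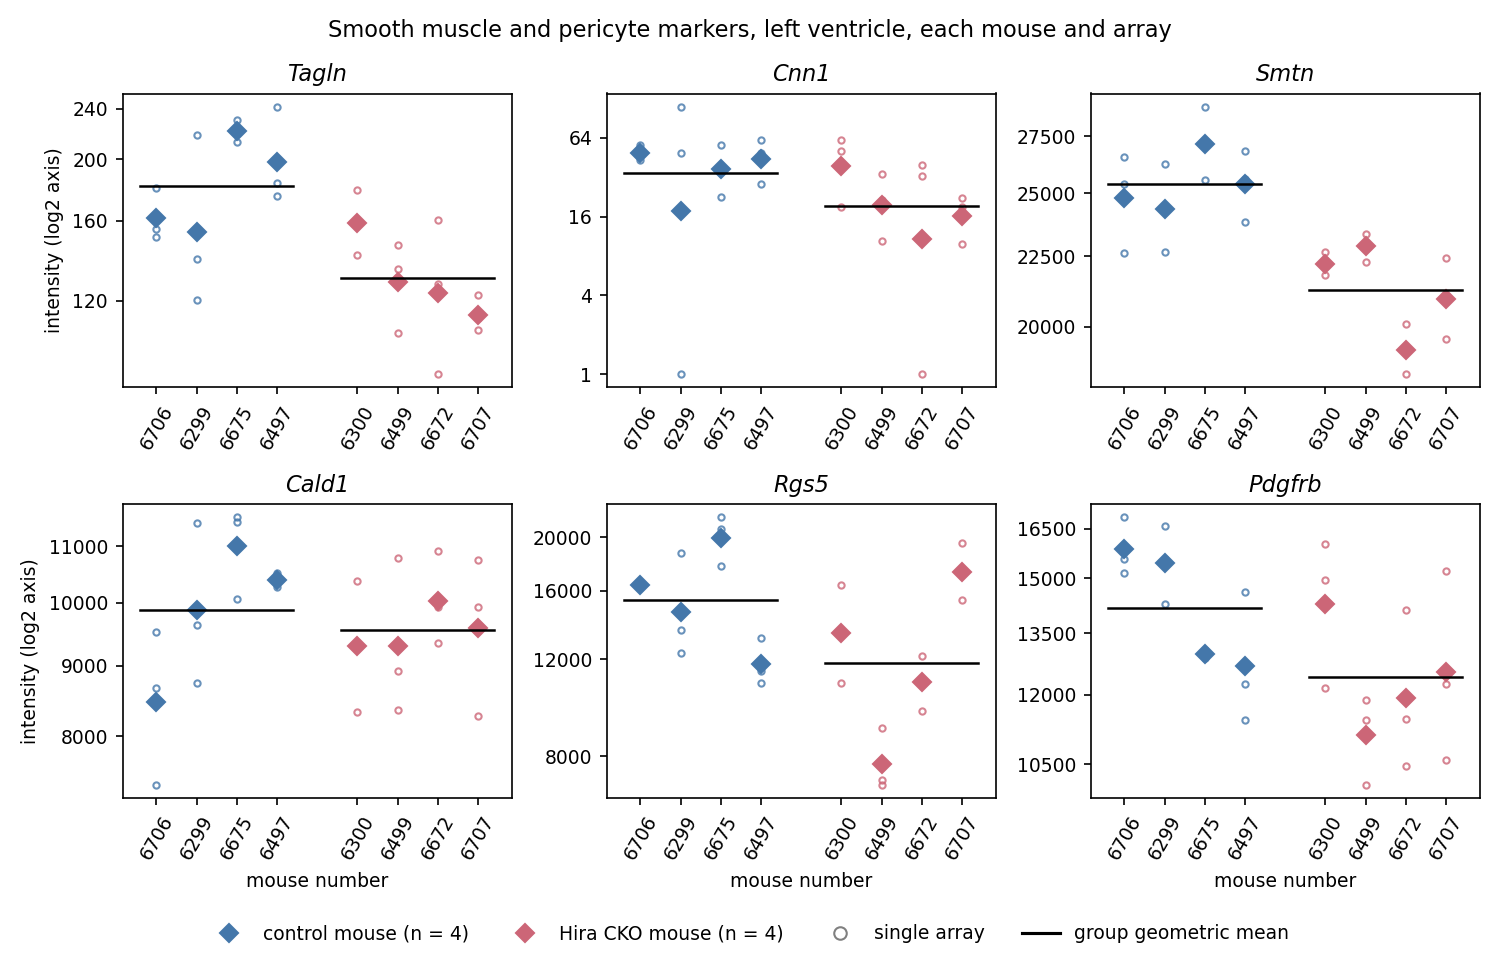
Intensity of the 6 measured markers on a log2 axis in each of the 4 control (blue) and 4 Hira CKO (red) mice. Diamonds are mice, open circles the single arrays and lines the group geometric means. The groups lay apart for Smtn and overlapped for the other 5 genes.

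Smtn encodes smoothelin, an actin-associated protein of contractile smooth muscle, and was the marker whose groups did not overlap. Its intensity was 24810, 24360, 27160 and 25400 in mice control_6706, control_6299, control_6675 and control_6497. In mice CKO_6300, CKO_6499, CKO_6672 and CKO_6707 it was 22220, 22890, 19230 and 20960. All 4 Hira CKO mice lay below all 4 control mice, as they did for 15.6% of all genes. The group means were 25430 ± 1230 in control and 21320 ± 1610 in Hira CKO (SD, n = 4), a log2 fold change of −0.26 (standard error 0.09, 95% interval −0.46 to −0.05, limma adjusted p = 0.079). It was the steadiest probe of the 6 between arrays of 1 mouse, with a standard deviation of 0.08 on the log2 scale. The difference was −0.18 after quantile normalization (limma adjusted p = 0.258). Smtn lies at chr11:3517522-3539292 of GRCm38.

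Tagln encodes transgelin (SM22α), an actin-binding protein that is abundant in differentiated smooth muscle and is widely used to mark it. In the control mice, in the same order, its intensity was 161.5, 154, 221.5 and 198.1. In the Hira CKO mice it was 158.6, 128.2, 123.4 and 114.1. Of the 4 Hira CKO mice, 3 lay below every control mouse, and mouse CKO_6300 lay between the 2 lower controls. The means were 183.8 ± 31.7 and 131.1 ± 19.3 (SD, n = 4), a log2 fold change of −0.48 (standard error 0.15, 95% interval −0.82 to −0.14, limma adjusted p = 0.0595). Without mouse CKO_6300 the log2 fold change was −0.58 and the limma adjusted p 0.0237, and over the 8 fits that each left out 1 mouse the adjusted p ranged from 0.0237 to 0.141. The probe was dim. Genes with a mean intensity between 100 and 250 had a median log2 fold change of −0.16, and 75.9% of them lay below 0. After quantile normalization Tagln stood at −0.33 (limma adjusted p = 0.134). Tagln lies at chr9:45929628-45936058.

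Cnn1 encodes calponin 1, which binds actin and restrains the myosin ATPase in smooth muscle. Its probe lay near the lower end of the arrays, at 49.12, 17.54, 36.77 and 44.16 in control mice and 39.09, 19.57, 10.87 and 16.05 in Hira CKO mice. Of the Hira CKO mice, 2 lay below every control and 2 lay among them. The log2 fold change of −0.85 had a standard error of 0.43 and a 95% interval from −1.82 to 0.12 (limma adjusted p = 0.182). Single arrays of this probe ranged from 1, the floor set before taking logs, to 110.4, and the standard deviation between arrays of 1 mouse was 1.76 on the log2 scale, above that between control mice (0.67) or Hira CKO mice (0.77). Mouse control_6299 and mouse CKO_6672 each had an array at the floor. Without array 3 of each mouse the log2 fold change was 0.17, and after quantile normalization it was −0.04 (limma adjusted p = 0.902). Without mouse CKO_6300 it was −1.19 (limma adjusted p = 0.0446). Cnn1 lies at chr9:22099221-22109221.

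Cald1 encodes caldesmon, an actin and calmodulin-binding protein made in smooth muscle and, in another isoform, in many other cells. Its intensity was 8473, 9878, 11000 and 10390 in control mice and 9307, 9299, 10040 and 9594 in Hira CKO mice. The Hira CKO mice lay within the range of the controls. The log2 fold change was −0.05 (standard error 0.10, 95% interval −0.28 to 0.18, limma adjusted p = 0.743), and it was 0.02 after quantile or cyclic loess normalization. Cald1 lies at chr6:34598495-34775469, and its single probe was not assigned to an isoform.

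Rgs5, a GTPase-activating protein that shortens signals from G-protein-coupled receptors, is among the most used pericyte markers. Its intensity was 16370, 14640, 19970 and 11770 in control mice and 13410, 7740, 10890 and 17270 in Hira CKO mice. The spread between mice was wide in both groups. Mouse CKO_6499 was the lowest of the 8, with each of its 3 arrays below every array of the other mice, and mouse CKO_6707 was higher than all controls but control_6675. The means were 15690 ± 3430 and 12330 ± 4030 (SD, n = 4), a log2 fold change of −0.38 (standard error 0.25, 95% interval −0.95 to 0.19, limma adjusted p = 0.293). The standard deviation of log2 intensity was 0.32 between control mice and 0.49 between Hira CKO mice, against 0.20 between arrays of 1 mouse. Over the fits that each left out 1 mouse the log2 fold change ranged from −0.56 to −0.18. Rgs5 lies at chr1:169655501-169695813.

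Pdgfrb encodes the receptor through which pericytes respond to PDGF-B. Its intensity was 15860, 15450, 12970 and 12690 in control mice and 14280, 11110, 11920 and 12540 in Hira CKO mice. Of the 4 Hira CKO mice, 3 lay below every control mouse, by a small margin for mouse CKO_6707. The means were 14240 ± 1640 and 12460 ± 1340 (SD, n = 4), with a log2 fold change of −0.19 (standard error 0.12, 95% interval −0.46 to 0.07, limma adjusted p = 0.26). Pdgfrb lies at chr18:61045127-61085067. Across the 6 markers no mouse was the lowest throughout. Mouse CKO_6499 lay below the control mean for 6 of 6 genes, mice CKO_6672 and CKO_6707 for 5 and mouse CKO_6300 for 4. Mouse control_6675 was the highest of the 8 for 4 of the 6. The intensities of the 6 probes summed to between 60500 and 71360 in control and between 51180 and 60490 in Hira CKO mice, a sum made up mainly of Smtn, Rgs5 and Pdgfrb.

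The dim end of the arrays was lower in Hira CKO, and Cnn1 and Tagln lie toward it. The 5th percentile of intensity was 43 ± 8.61 in control and 24.8 ± 9.49 in Hira CKO mice (SD, n = 4), with mice from 34.7 to 54.8 and from 17.4 to 38.7. In genes with a mean intensity under 50, where Cnn1 lies, the median log2 fold change was −0.91 and 98.8% of genes lay below 0. Between 250 and 1000 the median was −0.02. In the band from 10000 to 25000, where Smtn, Rgs5 and Pdgfrb lie, it was −0.10, and in the band from 5000 to 10000, where Cald1 lies, it was −0.08. Cnn1 thus stood close to the median of the genes of its own brightness, while Tagln, Smtn, Rgs5 and Pdgfrb stood below theirs. After quantile normalization the medians of all bands lay between −0.03 and 0. The part of the dim end in the values of Tagln and Cnn1 was not tested.

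**Figure D2:**
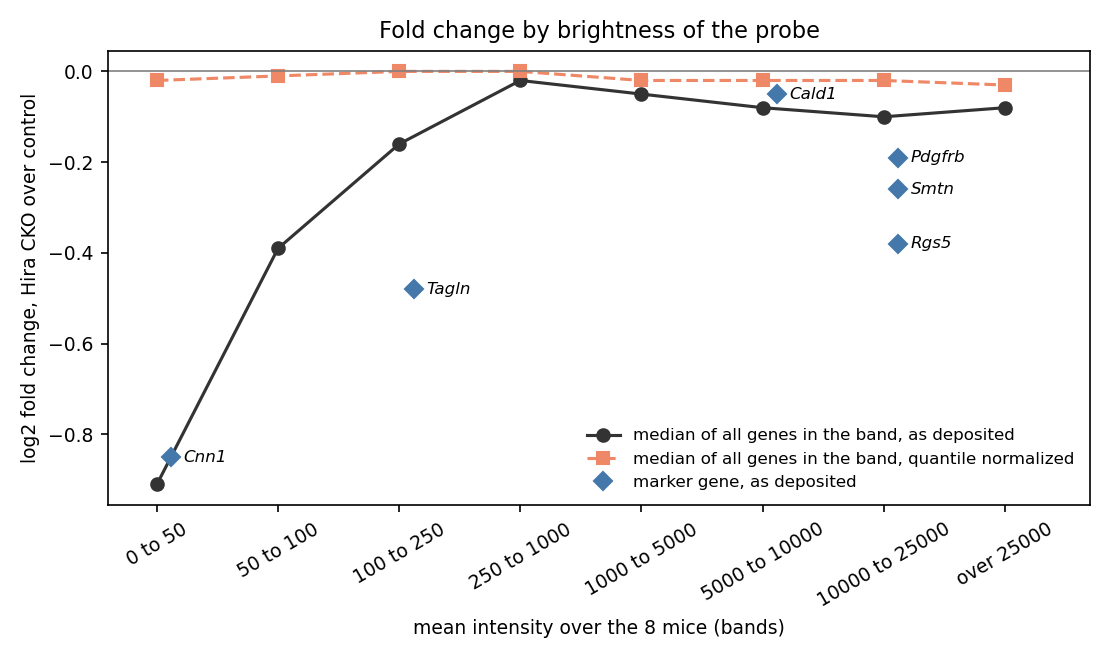
Log2 fold change (Hira CKO over control) against the mean intensity of the gene over the 8 mice, in 8 bands. Lines join the median of all genes in a band, as deposited (black) and after quantile normalization (orange), and blue diamonds are the 6 markers as deposited. The deposited medians run from −0.91 in the dimmest band to −0.02 between 250 and 1000.

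The smooth muscle genes around the markers did not move together. Of 30 listed contractile genes of smooth muscle beyond the 6 markers, many of them also made in cardiomyocytes, 26 were measured. In Hira CKO 2 rose, 5 fell and 19 did not pass. Their median log2 fold change was −0.08. After quantile normalization 2 were higher and 2 lower. Acta2, which encodes α-smooth muscle actin, rose: its intensity was 69630, 110900, 86730 and 84000 in control mice and 197200, 175300, 135400 and 135000 in Hira CKO mice. All 4 Hira CKO mice lay above all 4 controls, as for 7.78% of all genes. The means were 87810 ± 17100 and 160700 ± 30800 (SD, n = 4), a log2 fold change of 0.87 (standard error 0.18, 95% interval 0.47 to 1.27, limma adjusted p = 0.0166). It was 0.90 after quantile normalization (limma adjusted p = 0.0234), and the call was lost in 1 of the 8 fits that left out a mouse, that without mouse control_6675 (limma adjusted p = 0.0512). Acta2 is also made by activated fibroblasts and by immature cardiomyocytes. By immunofluorescence, the paper found the protein in cardiomyocytes of Hira CKO hearts and in few or none of control hearts. Which cells carried the rise in RNA was not tested here.

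Within each mouse, Acta2 was set against each marker as a difference of log2 intensities, which multiplying a whole array by a constant cannot change. From control to Hira CKO this difference widened by 1.36 for Tagln, 1.72 for Cnn1, 1.13 for Smtn, 0.92 for Cald1, 1.25 for Rgs5 and 1.06 for Pdgfrb. By construction each of these values is the log2 fold change of Acta2 less that of the marker. A shift that differs with brightness, as at the dim end, is not removed in this way. The 2 groups lay apart for 5 of the 6 markers, the exception being Cnn1, but they also did so for 75.7% of all other genes set against Acta2 in the same way.

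Of the other contractile genes called on deposited values, most fell, as did most called genes of the whole array (9.65% lower, 4.94% higher). After quantile normalization, as given above, 2 genes of the list were higher and 2 lower. Smtnl2, a smoothelin-like gene, had an intensity of 6450 ± 526 in control and 4624 ± 258 in Hira CKO mice (SD, n = 4). It fell by 0.48 on the log2 scale (limma adjusted p = 0.0145, and 0.0133 after quantile normalization), and the call was lost without mouse control_6675 (limma adjusted p = 0.0518). Kcnmb1, the β1 subunit of the calcium-activated potassium channel of smooth muscle, was dim. Its intensity was 60.34, 58.24, 66.78 and 64.08 in control and 44.22, 26.51, 31.82 and 34.11 in Hira CKO mice, with no overlap. The gene fell by 0.89 on the log2 scale (limma adjusted p = 0.00857). After quantile normalization it stood at −0.29 (limma adjusted p = 0.273), without array 3 of each mouse it was −0.41 and did not pass, and genes of its brightness had the median of −0.91 given above. Pgm5, which encodes aciculin of muscle adhesion sites, rose by 0.44 on the log2 scale (limma adjusted p = 0.0233), a call kept in 4 of the 8 fits that left out a mouse and lost without mice control_6299 or control_6675 or mice CKO_6499 or CKO_6672 (adjusted p up to 0.0708). Desmin (Des), which smooth muscle, pericytes and cardiomyocytes all make, stood at −0.02 (limma adjusted p = 0.926). The other 3 genes that fell, Pdlim7, Cnn2 and Itga7, were named after their values were seen.

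**Figure D3:**
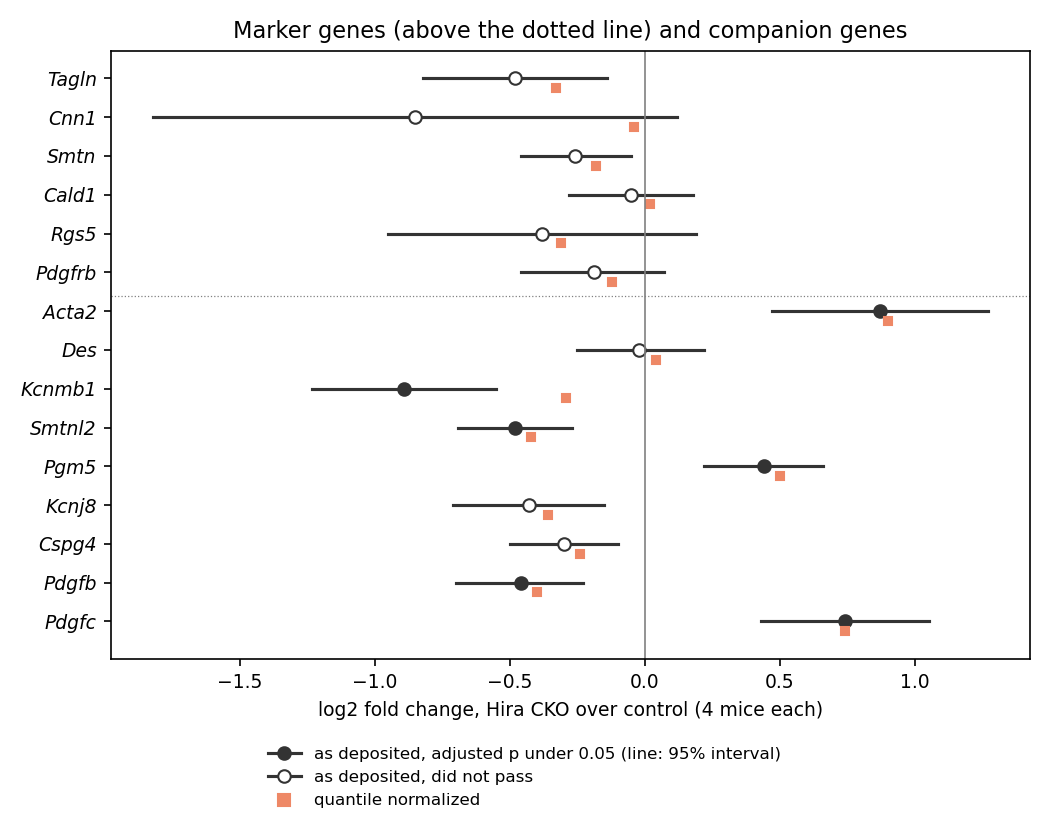
Log2 fold change of Hira CKO over control for the 6 markers, above the dotted line, and 9 companion genes. Circles with lines give the fit and its 95% interval on the deposited values, filled where the adjusted p was under 0.05, and squares the quantile normalized values. The markers are all open circles, from −0.85 for Cnn1 to −0.05 for Cald1.

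Promoters of Smtn and Acta2 are shown because the log2 fold changes of these contractile genes had opposite signs. Among the marker promoters available, that of Myl9 held a CArG box and is shown too, with that of Rgs5 as the pericyte gene. The sequences are from RefSeq (GRCm38.p6), run from 250 bases before to 50 bases after the start of transcription and are written 5′ to 3′ on the strand of the gene. Capitals mark a CArG box, CC and GG around 6 letters that are all A or T, or a CArG-like match, in which 1 of the 6 is G or C. The motif reads alike on both strands. No other motif was searched.
Acta2, chr19:34255324-34255623, minus strand: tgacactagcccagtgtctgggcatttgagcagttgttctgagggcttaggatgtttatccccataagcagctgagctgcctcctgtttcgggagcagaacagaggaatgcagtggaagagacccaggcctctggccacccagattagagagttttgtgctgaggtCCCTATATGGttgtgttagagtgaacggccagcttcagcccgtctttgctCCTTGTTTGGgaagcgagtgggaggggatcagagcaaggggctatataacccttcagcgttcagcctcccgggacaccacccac
Smtn, chr11:3539243-3539542, minus strand: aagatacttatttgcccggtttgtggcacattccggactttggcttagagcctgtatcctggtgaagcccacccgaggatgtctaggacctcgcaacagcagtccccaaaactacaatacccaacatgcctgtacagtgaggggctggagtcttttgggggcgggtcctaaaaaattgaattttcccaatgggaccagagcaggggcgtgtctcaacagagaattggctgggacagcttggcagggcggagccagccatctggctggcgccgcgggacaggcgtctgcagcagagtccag
Rgs5, chr1:169655251-169655550, plus strand: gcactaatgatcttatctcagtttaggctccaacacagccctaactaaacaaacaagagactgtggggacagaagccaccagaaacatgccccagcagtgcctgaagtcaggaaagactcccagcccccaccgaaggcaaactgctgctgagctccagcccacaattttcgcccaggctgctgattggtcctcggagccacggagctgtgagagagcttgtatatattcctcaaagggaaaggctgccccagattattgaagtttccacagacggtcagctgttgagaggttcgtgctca
Myl9, chr2:156775214-156775513, plus strand: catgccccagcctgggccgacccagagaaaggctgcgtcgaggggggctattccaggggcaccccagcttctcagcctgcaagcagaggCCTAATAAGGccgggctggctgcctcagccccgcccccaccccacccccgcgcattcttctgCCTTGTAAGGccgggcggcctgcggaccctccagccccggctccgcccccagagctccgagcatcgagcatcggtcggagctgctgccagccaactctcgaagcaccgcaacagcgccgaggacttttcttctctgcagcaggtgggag
The Acta2 window held 2 CArG-like matches, which start at −84 and −34 from the start of transcription. The windows of Smtn and Rgs5 held none. That of Myl9 held a CArG box at −161 and a CArG-like match at −99. The tables matched 8 promoters of 7 of the 10 marker genes. Tagln, Myh11 and Pdgfrb had no promoter sequence there and could not be searched. A CArG box was held by 1 of the 8, by 3 of 27 promoters of the other contractile genes (11.1%) and by 1.63% of all 32851 promoters. A CArG-like match was found in 1 of the 8 marker promoters (12.5%), in 3 of the 27 (11.1%) and in 8.5% of all 32851. A match describes these letters, not binding, and the windows are short.

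SRF and the genes listed around it gave mixed values. Of 18 listed genes for SRF, its myocardin family partners and their regulators, 16 were measured, and 1 rose, 3 fell and 12 did not pass. Over all genes 4.94% rose and 9.65% fell. After quantile normalization 1 gene of the list was higher and 2 were lower. Myocardin itself (Myocd) had no probe under its name. Tead1, a transcription factor that also serves cardiomyocytes, fell by 0.46 on the log2 scale (limma adjusted p = 0.0133). Foxo4, which in mouse binds and represses myocardin, had intensities of 67.36 ± 7.75 in control and 39.33 ± 7.29 in Hira CKO mice (SD, n = 4) and fell by 0.79 (limma adjusted p = 0.0125), but it was dim and did not pass after quantile normalization (limma adjusted p = 0.203). Sp1 fell by 0.44 and Hexim1 rose by 0.32 on the log2 scale, with limma adjusted p of 0.0374 and 0.0424, and each call was kept in 2 of the 8 fits that left out a mouse (adjusted p up to 0.0997 and 0.104). Of 24 genes for myosin light chain phosphorylation, the switch of smooth muscle contraction, 12 were measured. In limma 0 were called and 0 had an unadjusted p under 0.05, and the methods' t-test called 0, with 1 under 0.05. Their median log2 fold change was −0.01.

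None of the pericyte genes beyond Rgs5 and Pdgfrb passed the test either, although some came close. Of 25 listed, 21 were measured and 0 passed in limma. In 6 the unadjusted p was under 0.05, and 5 of these were lower in Hira CKO, where 26.8% of all genes were so. The methods' t-test called 1, Cspg4. The median log2 fold change was −0.14, that of all genes, and 15 of the 21 lay below 0. Kcnj8, the pore subunit of the ATP-sensitive potassium channel of cardiac pericytes, had an intensity of 7361, 9851, 8759 and 7013 in control and 6157, 6137, 6487 and 5584 in Hira CKO mice. Cspg4, which encodes the NG2 proteoglycan of pericytes, stood at 6239, 7133, 6395 and 6027 and at 5438, 4853, 5221 and 5429. For both, all 4 Hira CKO mice lay below all 4 controls, as they did for 3 of the 21 genes and for 15.6% of all genes. The log2 fold changes of Kcnj8 and Cspg4 were −0.43 (standard error 0.12, limma adjusted p = 0.0505) and −0.30 (standard error 0.09, limma adjusted p = 0.0536), just short of the threshold. After quantile normalization they were −0.36 and −0.24 (limma adjusted p = 0.111 and 0.124). Each passed in 1 of the 8 fits that left out a mouse (limma adjusted p = 0.0493 in both). These were the fits without mouse control_6497 for Kcnj8 and without mouse CKO_6300 for Cspg4. In the other 7 the adjusted p went up to 0.124 for Kcnj8 and 0.12 for Cspg4. Of 15 other settings, thresholds aside, Kcnj8 passed in 6 and Cspg4 in 7. Both passed with 50 added to each value, without dim genes and with limma's trend and robust settings. Both also passed on single arrays with the mouse or the array number as a block. Kcnj8 passed with neighbouring mouse numbers as a block, and Cspg4 on the mean of all probes and in the methods' t-test. Neither passed after cyclic loess normalization.

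**Figure D4:**
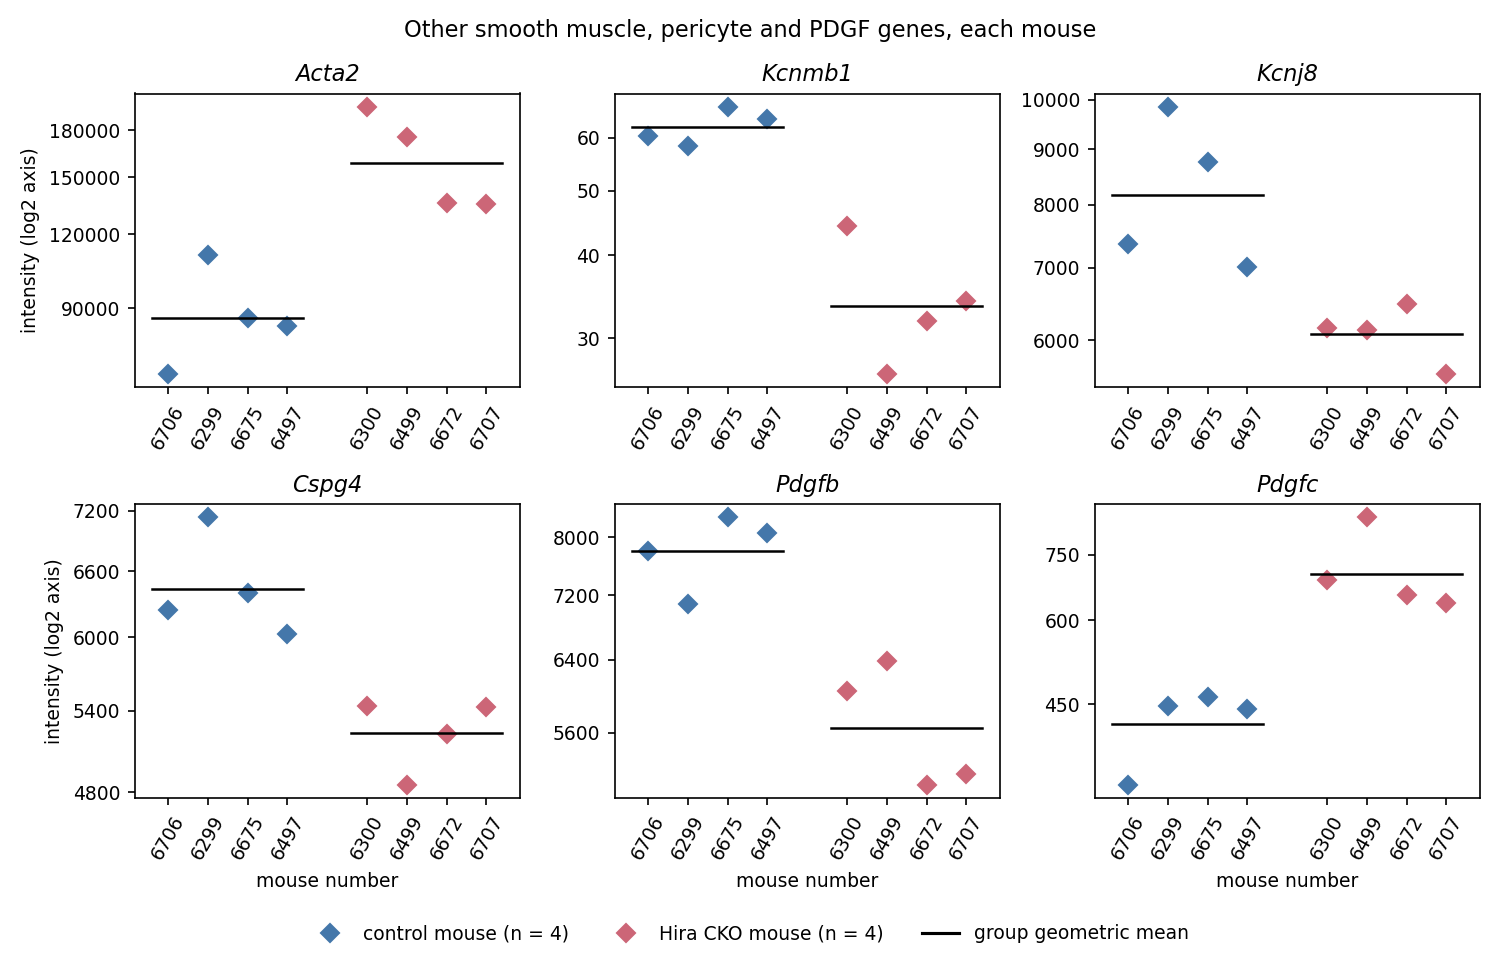
Intensity on a log2 axis of Acta2, Kcnmb1, Kcnj8, Cspg4, Pdgfb and Pdgfc in each of the 4 control (blue) and 4 Hira CKO (red) mice, with lines at the group geometric means. The groups lay apart in all 6 panels, with Hira CKO above control for Acta2 and Pdgfc and below for the others.

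Of the PDGF ligands Pdgfb fell and Pdgfc rose in Hira CKO, and neither PDGF receptor passed the test. Pdgfb, the endothelial ligand of PDGFRβ, had an intensity of 7812, 7086, 8298 and 8064 in control and 6043, 6385, 5096 and 5196 in Hira CKO mice. All Hira CKO mice lay below all controls, and the gene fell by 0.46 in log2 intensity (standard error 0.11, limma adjusted p = 0.0249). The call was kept in 3 of the 8 fits that left out a mouse, those without mouse control_6299 or mice CKO_6300 or CKO_6499, and lost in the others (adjusted p up to 0.0772), and the adjusted p was 0.0531 after quantile normalization. Pdgfc, a ligand that acts mainly through PDGFRα, had an intensity of 342.1, 448.2, 461.9 and 443.5 in control and 689.1, 852.1, 653.7 and 635.5 in Hira CKO mice. It rose by 0.74 on the log2 scale (standard error 0.13, limma adjusted p = 0.0118), a call kept in all 8 fits that left out a mouse and after quantile normalization (limma adjusted p = 0.00727). Of the 8 genes listed for PDGF ligands, receptors and processing, 1 rose, 1 fell and 6 did not pass. Over all genes 14.6% were called. Of 28 Notch pathway genes, 21 were measured and 1 fell: Dll3, a ligand-like gene that was dim (76.59 ± 8.49 in control and 45.08 ± 10.3 in Hira CKO mice, SD, n = 4). The gene fell by 0.78 on the log2 scale (limma adjusted p = 0.0189), a call kept in 6 of the 8 fits that left out a mouse and lost without mice control_6675 or control_6497 (adjusted p up to 0.0594). After quantile normalization Dll3 stood at −0.34 (limma adjusted p = 0.0495) and after cyclic loess normalization at −0.27, which did not pass. The call was also lost on single arrays with the mouse or the array number as a block and without array 3 of each mouse, where the log2 fold change was −0.43.

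Relatives of Rgs5 moved in both directions on deposited values. Of 17 other RGS genes, all measured, 3 rose, 1 fell and 13 did not pass. Over all genes 4.94% rose and 9.65% fell. After quantile normalization 4 of the RGS genes were higher and 0 lower. Rgs11 had an intensity of 132.2, 144.8, 135.6 and 118.5 in control and 455.5, 530.6, 416.2 and 329.7 in Hira CKO mice. Every Hira CKO mouse lay above every control, and the gene rose by 1.69 on the log2 scale (standard error 0.15, limma adjusted p = 0.000419). Rgs16 rose by 0.66 (limma adjusted p = 0.0171) and Rgs6 by 0.34 (limma adjusted p = 0.0379), the latter kept in 2 of the 8 fits that left out a mouse (adjusted p up to 0.0865). Rgs20, dim at 62.33 ± 2.88 in control and 41.36 ± 5.15 in Hira CKO mice (SD, n = 4), fell by 0.60 (limma adjusted p = 0.011), and stood at −0.06 after quantile normalization (limma adjusted p = 0.774).

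Markers of the other cells of the ventricle were measured beside these. Over all genes 14.6% were called and 67.8% lay below 0, with a median log2 fold change of −0.14. After quantile normalization 52.6% of all genes lay below 0, with a median of −0.02. At an unadjusted p under 0.05 in limma, 26.8% of all genes were lower in Hira CKO. Of 17 measured endothelial markers, 0 passed in limma, 4 had an unadjusted p under 0.05 and 16 lay below 0, with a median log2 fold change of −0.21 (−0.14 after quantile normalization). The methods' t-test called 0 of them, with 5 under 0.05. Their summed intensity was between 399200 and 428500 in control and between 357200 and 384200 in Hira CKO mice. Pecam1 stood at −0.38 (limma adjusted p = 0.0618) and Kdr at −0.39 (limma adjusted p = 0.0873). Of 16 fibroblast markers 1 fell, Smoc2, by 0.46 on the log2 scale (limma adjusted p = 0.0492), kept, of the 8 fits that left out a mouse, only in that without mouse CKO_6707 (adjusted p up to 0.114). The median of the fibroblast markers was 0, and their sum was between 478700 and 508600 in control and between 452800 and 529900 in Hira CKO mice. Of 13 myofibroblast markers 11 lay above 0, with a median of 0.49 (0.56 after quantile normalization). In this list 3 rose, among them Cthrc1 (group means 121.1 ± 25.1 and 238.4 ± 16.3, SD, n = 4, limma adjusted p = 0.0045), and Thbs4, by 1.02 on the log2 scale (limma adjusted p = 0.0189), and 1 fell, Fap by 0.42 (limma adjusted p = 0.024). The call of Thbs4 was lost without mouse control_6675 (adjusted p = 0.0554) and that of Fap was kept in 3 of the 8 fits (adjusted p up to 0.0692). The myofibroblast markers summed to between 39590 and 53930 in control and between 53160 and 72930 in Hira CKO mice. Of 11 macrophage markers 10 lay below 0, with a median of −0.20 (−0.12 after quantile normalization), and 1 rose, Cd68, by 0.70 (limma adjusted p = 0.0272, kept in 3 of the 8 fits, up to 0.0699), with sums from 74990 to 116400 and from 61090 to 104600. Of 10 measured cardiomyocyte markers 0 passed in limma, 0 had an unadjusted p under 0.05 and the methods' t-test called 0, with 1 under 0.05. All 10 lay above 0 (1 lay below 0 after quantile normalization), with a median of 0.09 and sums from 2303000 to 2463000 in control and from 2484000 to 2744000 in Hira CKO mice. The sums of the 2 groups did not overlap for the endothelial markers, where Hira CKO was lower. The same held for the Notch genes (71450 to 75440 in control, 66710 to 70690 in Hira CKO). It also held, by a small margin, for the 6 smooth muscle and pericyte markers. For the cardiomyocyte markers the sums did not overlap either, with Hira CKO higher. Those sums include Tnni3, at 83790 in mouse control_6497 against 241300 to 306800 in the other controls. How often sums of other gene lists lie apart was not tested. No marker of any list was at the floor in all mice. The part of these cells in the values of the smooth muscle and pericyte markers was not tested.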

How the data were processed

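Total RNA from left ventricles (control, 4 mice, and Hira CKO, 4 mice) was measured on 24 single-colour arrays (MouseOne Array Plus), 3 for each mouse. The authors deposited linear probe intensity values, scaled so that every array has a median of 513.2. The sources used here do not give the background method. Before log2 a floor of 1 was set, which changed 0 to 2535 of the 26423 probes of an array. The annotation gave 20377 probes 1 symbol each, for 17742 genes after matching to RefSeq (GRCm38), where 18213 were official symbols, 2126 synonyms of 1 gene and 38 synonyms of several, kept as given. The brightest probe of a gene was used, also for the 2278 genes with more than 1.

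Arrays of a mouse were averaged. Groups were compared with limma 3.58.1 in R 4.3.3 (lmFit, eBayes) with Benjamini-Hochberg adjustment over all genes, at a threshold of 0.05. Data were simulated for 4 mice against 4 over 17742 genes. Of 100 genes changed 1.5-fold 30 were recovered, and of 100 changed 2-fold 74, with 4 false calls. No other genes were changed in that simulation, while 2588 were called in the data, so the adjustment set a different cut-off. These rates therefore do not say how many changed genes were recovered in the comparison of Hira CKO and control. The number of mice and of arrays limits the precision. The labels do not say whether mice shared litters.

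The members and lists were chosen with earlier results of these data known. Named genes were the markers, Acta2, Des and, of each companion list, up to 4 called genes with the smallest p, or 2 where none was called. The fit was repeated with other normalization (quantile, cyclic loess), with 50 added to each value, without genes of mean intensity under 100, on the mean of all probes or on every probe, with limma's trend and robust settings, with the methods' t-test, on single arrays (mouse as random block, or array number as block), with neighbouring mouse numbers as block, without each mouse or array number in turn, and at thresholds of 0.01 and 0.10. Leaving out the 2 arrays with most values under 1 was added after seeing the data. Tables and plots were made with pandas 2.3.3 and matplotlib 3.10.9 in Python 3.11.15.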

Additional observations from a re-analysis of the deposited data

Results flagged for a closer look

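In 3 of 72 groups of 4 mice checked (36 genes), 1 mouse stood apart from the other 3 of its group by more of the range of the group than Dixon's 95% limit, and chance alone does this in about 1 in 20 groups. All 3 concerned mouse control_6706 and none a smooth muscle or pericyte marker. For Pdgfc the mouse was the lowest control, at 342.1 against 443.5 to 461.9 in the others (gap over range 0.865). For Rgs20 it was the lowest, at 58.06 against 63.17 to 64.26 (0.831). For Arhgef11, a guanine nucleotide exchange factor for RhoA, it was the highest, at 10000 against 8544 to 8774 (0.831), and that gene stood at −0.16 between the groups (limma adjusted p = 0.227).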

How the results depend on the processing

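Tagln, Smtn, Rgs5 and Pdgfrb had a log2 fold change below 0 in the fit on deposited values and in all 25 alternatives. Many of these alternatives cannot change the fold change of a gene with 1 probe. These are the thresholds, the t-test, the fits with a block, limma's trend and robust settings, leaving out dim genes and the settings for several probes. The sign in those fits was fixed in advance. Cnn1 ranged from −1.78 without array 1 to 0.17 without array 3 of each mouse. Cald1 was −0.14 without array 3, 0.07 without array 1, 0.02 after quantile and after cyclic loess normalization and 0.0015 without mouse control_6675. Des was −0.10 without mouse CKO_6499, 0.04 after quantile and 0.08 after cyclic loess normalization, 0.01 without mouse control_6497, 0.02 without mouse CKO_6672, 0.03 without mouse CKO_6707, 0.03 without array 1 and 0.01 without array 2. Of the 6 markers, 0 were called on deposited values. With an offset of 50, and with dim genes left out, 1 was called, Tagln. With single arrays and the mouse as a random block, with the array number as a replicate block, and at an adjusted p under 0.10, 2 were called, Tagln and Smtn. Leaving out 1 mouse or 1 array number gave 0 to 2, the 2 (Tagln and Cnn1) without mouse CKO_6300. Companion genes called numbered 24, 50 with the random block, 48 with the replicate block, 3 at an adjusted p under 0.01, 49 at 0.10, and 9 (without mouse control_6675) to 29 with 1 mouse or array number left out. Over all genes 2588 were called, 876 higher and 1712 lower, against 1251 and 973 after quantile and 1267 and 866 after cyclic loess normalization. The methods' t-test called 1671, the threshold of 0.01 left 543 and that of 0.10 gave 5140. Leaving out 1 mouse or array number gave 937 (without mouse control_6675) to 4484 (without mouse CKO_6300). The replicate block gave 3726. Neighbouring mouse numbers as a block gave 2802, with 0 markers and 31 companion genes, and leaving out the 2 arrays with most values under 1 (chosen after seeing the data) gave 1812, with 0 and 18. The deviations of mice with neighbouring numbers correlated at −0.02, 0.25, 0.04 and 0.24 in the 4 pairs. Not every pair was above 0.1 and the labels name no shared litter, so the numbers were not treated as pairs. The cause of these shifts was not tested. With median scaling, a change common to all genes would not be seen.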
